A study of Homo sapiens with 30 samples.

Results

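MYC occupancy was followed in 5 ChIP-seq libraries out of the 30 samples of the series, chosen by their labels as MYC immunoprecipitations after 4 h in DMSO or in dTAG47. The cells were DTMYC cells, made from G401, an established malignant rhabdoid tumour line of the kidney. Their endogenous MYC was removed with CRISPR-Cas9, and a lentivirus supplied MYC with an N-terminal HA-FKBP12F36V tag, which dTAG47 links to the ubiquitin system for degradation. The control libraries carry the same tagged MYC and received only the solvent DMSO. They are numbered 1 and 3, and the libraries treated with 500 nM dTAG47 are numbered 1, 2 and 3. The antibody is labelled MYC, whereas the names of the deposited lists carry HA, the tag on the fusion. The labels do not say whether DTMYC is a single clone or whether libraries came from separate cultures, so every test over libraries measures only the spread between these libraries.

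MYC is a basic helix-loop-helix leucine zipper transcription factor that binds DNA as a partner of MAX, with the E-box CACGTG as its best known sequence. In growing cells it is found mainly at promoters in open chromatin, many of them promoters of genes for ribosomes, translation, nucleotide synthesis and mitochondria. Rhabdoid tumours typically lack SMARCB1, a subunit of the SWI/SNF chromatin remodeller that MYC also contacts.

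A region was taken as the union of overlapping DMSO peaks. The 2 DMSO lists gave 4437 regions, of which 1068 held a peak in both libraries and form the set followed here. Of these, 872 lay on the numbered chromosomes or X and more than 1 Mb from an assembly gap, and they are called gap-distant below. A region was kept in a dTAG47 library when a peak of that library overlapped it, and cleared when no dTAG47 library had one. The score of a peak is 10 times the −log10 q value of the peak caller, so it is a strength of evidence that grows with read depth as well as with binding. The read depth behind the lists is unknown.

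Windows with and without the E-box are shown for regions described below. They are 201 bases of the hg19 plus strand around the middle of a region, and CACGTG is in capitals. Of the 8 regions on the numbered chromosomes or X with the highest lower DMSO score, 3 hold CACGTG in this window and 5 do not. The first 4 windows come from these 8 regions, all kept in dTAG47 libraries 1 and 3. The first with an E-box lies at the start of SNHG15, a long noncoding RNA that hosts small nucleolar RNAs (chr7:45025999-45026199, midpoint in an exon). The second lies at the start of the long noncoding RNA gene ENSG00000286874 (chr7:4681687-4681887, midpoint outside annotated genes). The third lies in an intron near the start of PPRC1, a coactivator of mitochondrial biogenesis (chr10:103893179-103893379). The fourth lies at the start of the long noncoding RNA gene ENSG00000289109 (chr7:23513907-23514107, midpoint outside annotated genes) and has no E-box.
SNHG15: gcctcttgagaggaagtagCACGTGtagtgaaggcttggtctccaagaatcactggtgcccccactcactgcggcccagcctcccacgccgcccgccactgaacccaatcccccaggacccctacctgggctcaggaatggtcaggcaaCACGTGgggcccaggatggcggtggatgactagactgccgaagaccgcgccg
ENSG00000286874: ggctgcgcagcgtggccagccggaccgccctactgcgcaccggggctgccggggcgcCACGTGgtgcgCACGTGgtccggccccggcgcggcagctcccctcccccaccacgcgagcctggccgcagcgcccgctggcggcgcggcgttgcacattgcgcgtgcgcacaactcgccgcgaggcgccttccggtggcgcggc
PPRC1: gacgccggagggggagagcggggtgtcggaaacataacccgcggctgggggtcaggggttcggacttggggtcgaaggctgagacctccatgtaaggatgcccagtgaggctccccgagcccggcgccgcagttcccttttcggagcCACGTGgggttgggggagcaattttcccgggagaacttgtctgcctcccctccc
ENSG00000289109: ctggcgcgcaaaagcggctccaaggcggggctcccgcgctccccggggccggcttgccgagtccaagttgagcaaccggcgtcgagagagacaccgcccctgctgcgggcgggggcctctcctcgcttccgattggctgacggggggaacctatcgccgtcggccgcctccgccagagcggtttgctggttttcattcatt
The next 3 windows come from promoter regions with no peak in any dTAG47 library. The first 2 hold an E-box and the third, centred in an exon of CASC3 (chr17:38296548-38296748), does not. One is centred in an intron beside the start sites of DNAAF5, a factor for the assembly of dynein arms, and PRKAR1B, a regulatory subunit of protein kinase A (chr7:766063-766263). The other is in an intron near the start of ACTR3B, an actin-related protein of the ARP3 type (chr7:152457227-152457427).
DNAAF5 and PRKAR1B: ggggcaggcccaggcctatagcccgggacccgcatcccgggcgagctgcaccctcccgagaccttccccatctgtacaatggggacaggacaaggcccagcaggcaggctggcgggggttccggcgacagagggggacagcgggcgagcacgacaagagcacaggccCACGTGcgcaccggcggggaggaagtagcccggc
ACTR3B: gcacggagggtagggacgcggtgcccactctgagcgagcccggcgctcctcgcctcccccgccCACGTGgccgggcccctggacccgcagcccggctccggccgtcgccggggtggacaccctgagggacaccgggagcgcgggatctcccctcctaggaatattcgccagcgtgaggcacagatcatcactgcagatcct
CASC3: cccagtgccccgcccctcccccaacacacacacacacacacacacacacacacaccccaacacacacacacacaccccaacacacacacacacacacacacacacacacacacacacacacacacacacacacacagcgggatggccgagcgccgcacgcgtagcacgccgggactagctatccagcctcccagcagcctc
The last window has no E-box. It lies within 1 Mb of an assembly gap on chromosome 1 (chr1:121484793-121484993), outside genes, in a peak that was called in every dTAG47 library and in no DMSO library.
Near-gap peak: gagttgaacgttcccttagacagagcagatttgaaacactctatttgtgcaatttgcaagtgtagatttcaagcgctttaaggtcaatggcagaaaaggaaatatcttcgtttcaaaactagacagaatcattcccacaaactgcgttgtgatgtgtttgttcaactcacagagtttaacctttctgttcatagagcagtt

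MYC peaks were far fewer after 4 h of dTAG47. The peak caller listed 4010 peaks in DMSO library 1 and 1519 in DMSO library 3. It listed 408 peaks in dTAG47 library 1, 7 in library 2 and 193 in library 3. Every dTAG47 library lay below both DMSO libraries, with 202.7 ± 201 peaks (SD, n = 3) against 2765 ± 1761 (SD, n = 2). The ratio of the geometric means was 30.1-fold, and 8.80-fold without dTAG47 library 2. An exact permutation test of the log2 number over libraries, two-sided, gave p = 0.2, and 0.1 is the smallest p that 2 against 3 libraries allow. On the linear scale, added after the data were seen, the same exact test gave p = 0.1. The bases covered by peaks had the same order, from 2469719 and 835117 in DMSO to 210596, 4940 and 88754 in dTAG47.

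**Figure D1:**
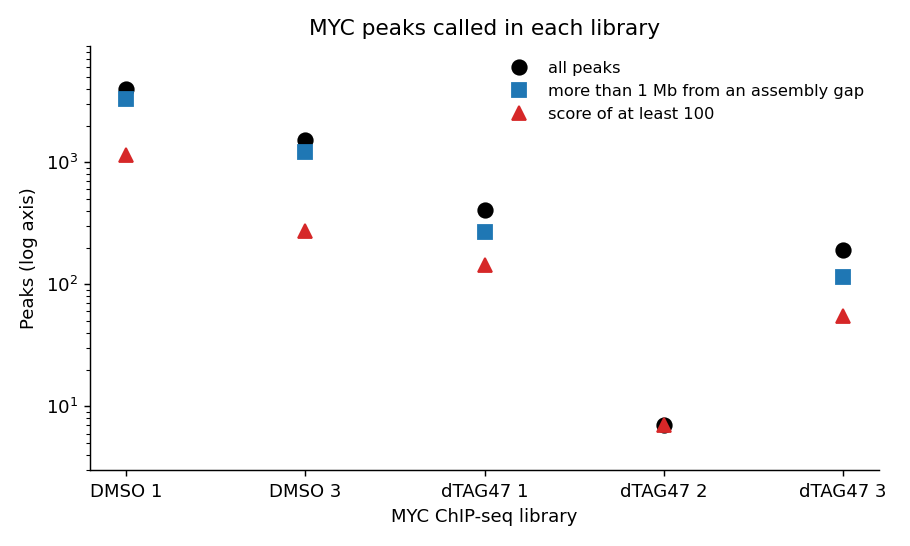
Number of MYC peaks in each library on a log axis, as all peaks (circles), peaks on the numbered chromosomes or X more than 1 Mb from a gap (squares) and peaks with a score of at least 100 (triangles). The dTAG47 libraries, with 408, 7 and 193 peaks, lie below DMSO libraries with 4010 and 1519, and library 2 has no gap-distant peak.

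Some libraries stood apart. In dTAG47 library 2 all 7 peaks lay near gaps, and all 7 were called in dTAG47 library 1, 4 in dTAG47 library 3, 3 in DMSO library 1 and 0 in DMSO library 3. DMSO library 1 held 157 peaks on processed pseudogenes against 13 in DMSO library 3, and 120 of the 157 overlapped no ATAC-seq peak. Its highest score, 62264, was in a peak that overlaps the ribosomal protein gene RPS29, where DMSO library 3 had 67. Which sequence within that peak gave the score was not resolved. The next was 34256 at RN7SK, the 7SK RNA gene, where no other library had a peak. DMSO library 1 was also the only MYC library with a peak on RMRP, the RNA of the RNase MRP enzyme, with a score of 12374. None of the 1068 shared regions was a processed pseudogene without an ATAC-seq peak. MYC mRNA does not report on a compound that acts on the protein: it lay between 1329 and 1478 CPM in the 6 DTMYC RNA-seq libraries. Of the markers of other cell types, PTPRC and CD3E were at 0, EPCAM, CDH1 and RBFOX3 were at most 1.03 CPM, and the keratin KRT8 was at 3884 CPM or more.

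The median peak score was slightly higher in dTAG47 libraries 1 and 3 than in the same-numbered DMSO libraries, within the spread between libraries. The median score was 61 and 50 in DMSO and 74.5, 293 and 60 in dTAG47, and the ranges overlapped without library 2. The log2 difference was 0.99 over all libraries (exact permutation p = 0.5, two-sided) and 0.28 without library 2 (exact permutation p = 0.667). Peaks with a score of at least 100 numbered 1148 and 276 in DMSO against 144, 7 and 55 in dTAG47. Among gap-distant peaks the median was 61 and 50 in DMSO and 62.5 and 51 in dTAG47 libraries 1 and 3. The median width was 524 and 469 bases in DMSO and 436.5, 732 and 408 bases in dTAG47, so libraries 1 and 3 were narrower than both DMSO libraries and the 7 peaks of library 2 were wider (exact permutation p = 1, two-sided). The log2 difference in width was 0.03 with library 2 and −0.23 without it.

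Most regions lost their call. Of the 1068 regions, 242 had a peak in dTAG47 library 1 (22.7%, exact 95% interval 20.2 to 25.3), 0 in library 2 (0.0%, exact upper limit 0.345%; a floor of 3 regions is 0.281%) and 105 in library 3 (9.83%, 8.11 to 11.8). These intervals are Clopper-Pearson intervals over regions and cover counting error only. The mean over libraries was 10.8% ± 11.4 (SD, n = 3). It was 16.2% without dTAG47 library 2, 4.92% without dTAG47 library 1 and 3.62% with the regions of DMSO library 1 alone. Among gap-distant regions 211 of 872 were kept in library 1 (24.2%), 0 in library 2 (0.0%) and 89 in library 3 (10.2%). In all, 278 of the 1068 regions (26.0%) were kept in library 1 or 3, 69 of them in both, and 790 were cleared. As a reference for how often a second library finds a peak again, DMSO library 3 found 26.6% of the 3301 gap-distant peaks of DMSO library 1, while dTAG47 libraries 1 and 3 found 7.54% and 3.06%.

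Regions with stronger DMSO evidence were kept more often. The regions were ranked by the lower of their 2 DMSO scores and divided into quintiles, the lowest with scores of 13 to 34 and the highest with scores of 105 to 588. In gap-distant regions dTAG47 library 1 kept 8.67%, 11.4%, 17.4%, 30.2% and 54.3% from the lowest to the highest quintile. Library 3 kept 3.47%, 3.24%, 6.40%, 7.10% and 31.2%. Library 1 thus rose at each step, while in library 3 the lower 4 quintiles had overlapping intervals and the highest stood above them. In the top decile, 59 of 88 regions (67.0%) were kept in library 1 and 36 of 88 (40.9%) in library 3. Over all regions and the 3 dTAG47 libraries, the top quintile exceeded the bottom quintile by 22.4 ± 21.4 percentage points (SD, n = 3). This was 33.6 without dTAG47 library 2, 12.4 without dTAG47 library 1 and 14.4 without DMSO library 3. A rise with score was also present between the controls: DMSO library 3 found 7.41% of the weakest and 59.4% of the strongest quintile of DMSO library 1 peaks, against 0.605% and 31.7% in dTAG47 library 1 and 0.151% and 12.9% in dTAG47 library 3. Width went the same way as the score, with 33.0% of gap-distant regions wider than the median and 15.4% of the narrower ones kept in library 1, and 15.1% and 5.28% in library 3.

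**Figure D2:**
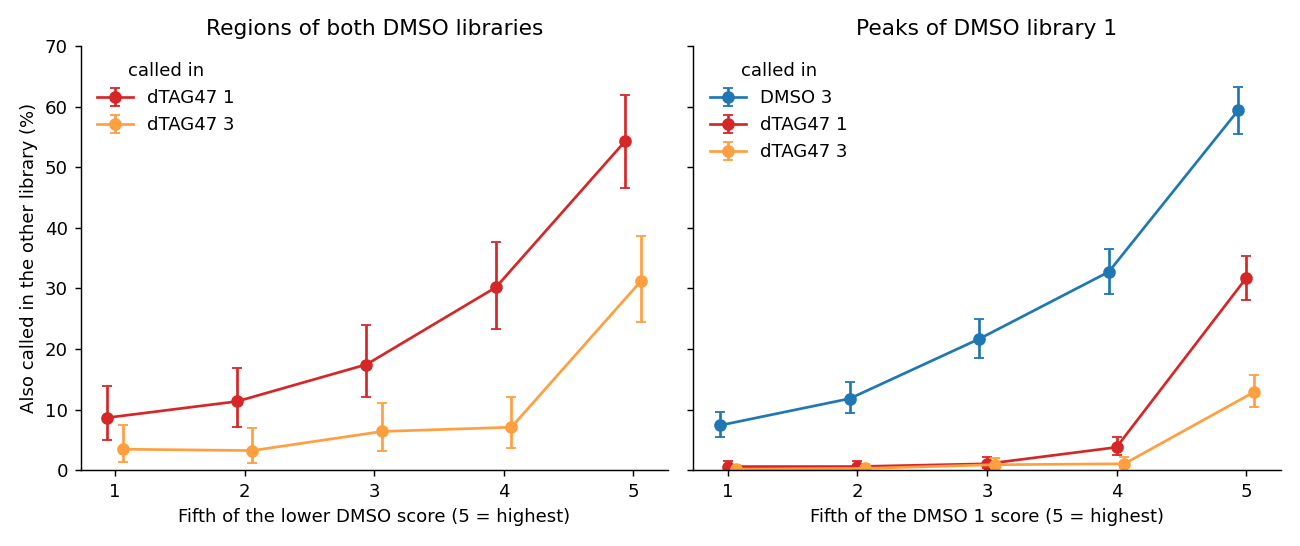
Share of gap-distant regions (left, ranked by the lower DMSO score) and of DMSO library 1 peaks (right, ranked by their own score) that were also called in another library, by quintile of the score, with exact 95% intervals for counting error. In the top quintile on the left 54.3% were called in dTAG47 1 and 31.2% in dTAG47 3, and on the right 59.4% were called in DMSO 3 against 31.7% and 12.9% in dTAG47 1 and 3.

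Regions that stayed called had narrower peaks than in DMSO and mostly lower scores, by an amount that depended on the DMSO library used. In the 211 gap-distant regions kept in dTAG47 library 1, the median score was 259 in DMSO library 1 and 69 in dTAG47 library 1. The median ratio was 0.296-fold (log2 −1.76), and 207 of the 211 regions were lower. In the 89 regions kept in library 3, the median score was 132 in DMSO library 3 and 55 in dTAG47 library 3, a median ratio of 0.428-fold (log2 −1.22), with 77 of 89 lower. Against the mean of both DMSO scores the log2 medians were −1.27 and −1.90. Against the lower DMSO score, the one used for ranking, the median ratio in library 1 was 0.774-fold (log2 −0.37), with 137 regions lower and 70 higher, and in library 3 it was 0.435-fold (log2 −1.20), with 77 lower and 12 higher. Over all regions the mean of the 2 library medians was −1.53 ± 0.41 (SD, n = 2), and −0.82 against DMSO library 3 alone. The regions were picked for a peak in DMSO, and the scale of the score differs between controls: DMSO library 3 was at 0.515 times DMSO library 1 in the 872 regions (log2 −0.96). The median width of these peaks went from 853 to 460 bases in library 1, narrower in 207 of 211, and from 679 to 409 bases in library 3, narrower in 80 of 89.

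**Figure D3:**
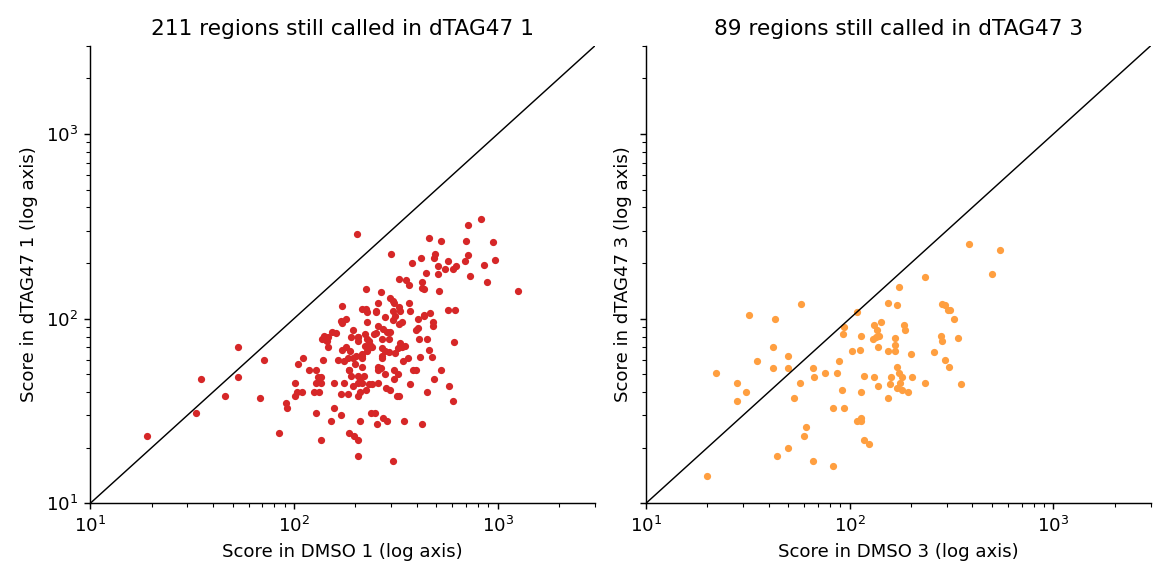
Score in dTAG47 against the score in the same-numbered DMSO library, on log axes, for each gap-distant region still called, with the line of equal scores. In library 1, 207 of 211 regions lie below the line, and in library 3, 77 of 89.

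The strongest regions on the numbered chromosomes and X showed both outcomes side by side, and dTAG47 library 2 had no peak in any of them. At SNHG15 (chr7:45025633-45026565) the score was 954 and 549 in DMSO libraries 1 and 3, and 259 and 235 in dTAG47 libraries 1 and 3. ENSG00000286874 (chr7:4681367-4682208) went from 1265 and 501 to 142 and 174. The region shared by the start sites of SNX5, a sorting nexin, and MGME1, a mitochondrial exonuclease (chr20:17948901-17950296), went from 827 and 384 to 345 and 254. In each of these 3 regions both dTAG47 scores were below both DMSO scores.
At DDX42, an RNA helicase, and CCDC47, an endoplasmic reticulum protein (chr17:61850825-61852010), the scores were 658 and 330 in DMSO and 391 and 172 in dTAG47. This region is near a gap and so is not among the gap-distant ones. At PPRC1 (chr10:103892754-103893805) they were 891 and 326, then 158 and 100. Its region spans 5 E-boxes, more than any other of the 8 strongest regions. At MAT2A, which makes S-adenosylmethionine (chr2:85765520-85767270), the scores went from 481 and 311 to 91 and 112.
The third strongest region on these chromosomes was at BRWD1, a bromodomain protein (chr21:40685209-40686123), and it had 389 and 401 in DMSO with no peak in dTAG47. It holds no CACGTG. At RPS19, a ribosomal protein of the small subunit (chr19:42364013-42364987), 265 and 265 in DMSO went to no peak. CASC3, of the exon junction complex (chr17:38296371-38296926), had 224 and 237 in DMSO and none in dTAG47. EBNA1BP2, a ribosome biogenesis factor whose start site lies beside that of CFAP57 (chr1:43637496-43638167), had 183 and 199 and then none. KICS2, part of a complex that regulates nutrient signalling (chr12:64615502-64616369), had 394 and 188 and then none. EIF3E, a translation initiation subunit, had 238 and 236 and then none. The cleared promoters thus included regions whose DMSO scores were as high as those of many kept ones. The E-boxes of RPS19 and EBNA1BP2 (cleared) and of SNX5 and MGME1 (kept) are shown with 10 bases on either side, at chr19:42364475-42364500, chr1:43637904-43637929 and chr20:17949253-17949278.
RPS19: gagccgcggcCACGTGcgagcggcag
EBNA1BP2: gccgtggctcCACGTGccaccgaatc
SNX5 and MGME1: agcagggcgcCACGTGctcccccaga

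Nearly all followed regions were at promoters. Of the 872 gap-distant regions, 822 were centred no more than 1000 bases from the start site of a gene in the annotation, and 50 lay farther off. Promoter regions were kept in 208 cases in dTAG47 library 1 (25.3%, exact interval 22.4 to 28.4), 0 in library 2 (0.0%) and 87 in library 3 (10.6%, 8.56 to 12.9). Of the 50 other regions, 3 were kept in library 1 (6.0%, 1.25 to 16.5) and 2 in library 3 (4.0%, 0.488 to 13.7). The intervals were apart in library 1 and overlapped in library 3. In all, 587 of 822 promoter regions (71.4%) were cleared. All 1068 regions held 962 at promoters and 106 others. Of the 106, 39 lay outside the numbered chromosomes and X and could not count as promoters. Between the 962 and the 106 the difference was 5.74 ± 7.07 percentage points (SD, n = 3), smaller than the spread between libraries. It was 1.73 without DMSO library 3, 1.79 without dTAG47 library 1, 8.61 without dTAG47 library 2 and 1.79 with start sites of protein-coding genes only. Within promoters, regions centred within 100 bases of a start site were kept in 26.3% (library 1) and 12.6% (library 3), those over 100 and up to 300 bases away in 27.0% and 10.8%, and those more than 300 and up to 1000 bases away in 18.5% and 3.85%.

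An E-box near the midpoint of the region did not separate kept from cleared regions. CACGTG, which reads the same on both strands, was found within 100 bases of the midpoint in 27.1% of gap-distant regions, in 56.0% of the 50 regions away from start sites, and in 4.74% of windows of the same length at annotated start sites of protein-coding genes. Of the 236 regions with CACGTG, 23.7% were kept in library 1 and 10.6% in library 3. Of the 636 without it, 24.4% and 10.1% were kept. In the top quintile the shares with and without were 41.8% and 60.2% in library 1, and 30.9% and 31.4% in library 3. Over all regions the difference was −0.49 ± 0.48 percentage points (SD, n = 3), and it changed sign when either DMSO library was left out, to 4.10 without library 1 and 1.15 without library 3. The variant CACGCG, searched on both strands, was in 22.1% of kept and 25.5% of cleared regions. The GC box GGGCGG, on both strands, was in 48.5% of kept and 75.7% of cleared regions of the top quintile, and in 53.8% and 56.6% over all gap-distant regions. Counted over gap-distant peaks, CACGTG was near the midpoint in 39.2% and 37.4% in dTAG47 libraries 1 and 3, and 19.8% and 26.6% in DMSO. The dTAG47 mean was 15.1 percentage points higher (exact permutation p = 0.333, the smallest possible here). In DMSO library 1 the share rose from 8.62% in the lowest score quintile to 29.4% in the highest. In DMSO library 3 it rose from 11.9% to 41.2%.
Where a kept region held an E-box, it was more often nearer to the middle of the dTAG47 peak than of the DMSO peak. This held in 96 of 148 regions in library 1 and in 42 of 71 in library 3. Among the 211 regions kept in library 1, CACGTG lay within 100 bases of the DMSO peak's midpoint in 29.4% and of the dTAG47 peak's midpoint in 42.7%. In library 3 the shares were 37.1% and 42.7% of 89, and their intervals overlapped in both libraries. The DMSO peaks of these regions were also wider, with medians of 853 against 460 bases in library 1 and 679 against 409 in library 3. The lists have no summits, and whether peak width accounts for the nearer midpoints was not tested.

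Open chromatin was mapped by ATAC-seq at 24 h, later than the ChIP-seq. An ATAC-seq peak in all 3 DMSO libraries overlapped 787 of the 872 regions (90.3%), and one in all 3 dTAG47 libraries overlapped 793 (90.9%). Most regions without a dTAG47 peak call lay in ATAC-seq peaks: 549 of the 632 cleared regions (86.9%) had an ATAC-seq peak in all 6 libraries, as had 218 of the 240 kept in library 1 or 3 (90.8%). ATAC-seq peaks do not measure how far accessibility changed at a region.

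Some dTAG47 peaks lay outside every DMSO peak, most of them near gaps or on other sequence, meaning outside the numbered chromosomes and X. They numbered 95 of 408 in library 1, 4 of 7 in library 2 and 64 of 193 in library 3, on average 37.9% ± 17.4 (SD, n = 3). The average was 62.1% without DMSO library 1. In library 1, 44 were near gaps, 35 on other sequence and 16 gap-distant. In library 3 these numbers were 28, 23 and 13, and restricted to gap-distant peaks the average of libraries 1 and 3 was 8.64%. The highest in library 1 was a peak of score 6237 on chromosome 19 (chr19:27731923-27732283), outside genes and near a gap. The near-gap window on chromosome 1 shown above had scores of 2349, 418 and 1217 in dTAG47 libraries 1, 2 and 3 and none in DMSO. Of the 111 peaks near gaps or on other sequence whose bases could be read, 0 held CACGTG near the midpoint. Of the 95 in library 1, 17 were shared with the corresponding peaks of library 3, and 0 of these were gap-distant. As a background, 709 of all 4010 and 305 of all 1519 DMSO peaks lay near gaps or on other sequence. In dTAG47 libraries 1, 2 and 3 these were 140 of 408, 7 of 7 and 78 of 193 peaks.

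MYC regions were read against lists of genes, most of them known MYC-related pathways. Of 20098 annotated protein-coding genes, 957 had a shared region at a start site (4.76%). Of the 957, 26.9% were kept in dTAG47 library 1 and 11.2% in library 3. The lists were chosen with results of these data known, and their counts are descriptions. The lists also differed in the lower DMSO score, with which the share kept rose. Its median was 102 for ribosomal protein genes, 42.5 for mitochondrial biogenesis and import, and 180 for glycolysis. In the ribosome, 51 of 77 ribosomal protein genes had a region, 34 of them kept in dTAG47 library 1 (66.7%) and 11 in library 3 (21.6%). RPL23A of the large subunit (chr17:27046822-27047624) had 461 and 340 in DMSO and 68 and 79 in dTAG47. RPSA of the small subunit had 301 and 268 in DMSO, and 224 in dTAG47 library 1 with no peak in library 3. RPS19, above, was cleared.
Among ribosome biogenesis genes, 29 of 51 had a region, with 15 and 8 kept in libraries 1 and 3. NPM1, the nucleolar chaperone nucleophosmin, went from 573 and 294 to 205 and 119. PES1, needed for processing of ribosomal RNA, went from 527 and 234 to 262 in library 1 and no peak in library 3. GNL3, a nucleolar GTPase, shares its region with PBRM1 of SWI/SNF, and went from 206 and 234 to no peak in library 1 and 45 in library 3. NCL, the nucleolar protein nucleolin, had 714 and 205 in DMSO and 220 in dTAG47 library 1 only.
Translation factors had regions at 19 of 37 genes, with 9 and 2 kept. EIF5A, an elongation factor, went from 568 and 305 to 112 and 111. Splicing and RNA processing genes had 15 of 30, with 8 and 2 kept. PRMT1, an arginine methyltransferase, went from 615 and 242 to 111 in library 1 only. tRNA synthetases had 7 of 20, with 3 and 1 kept, among them IARS1 for isoleucine with 483 and 234 in DMSO and 96 and 169 in dTAG47.
Nucleotide and polyamine synthesis had 12 of 30, with 5 kept in each library. PPAT and PAICS share a region and are counted as separate genes, with scores of 98 and 90 in dTAG47. NME1, a nucleoside diphosphate kinase, went from 729 and 293 to 170 and 60. CAD, which starts pyrimidine synthesis, had weaker scores of 72 and 92 in DMSO and no peak in dTAG47. ODC1, which starts polyamine synthesis, had 144 in DMSO library 1 and no peak in the other libraries. Mitochondrial biogenesis and import had 14 of 33, with 4 and 5 kept (28.6% and 35.7%). MRPL3, a mitochondrial ribosomal protein, went from 603 and 280 to 185 and 81, and the chaperone HSPD1 from 339 and 109 to 70 and 28. HSPD1 shares this region with its neighbour HSPE1.
Glycolysis had 5 of 18, with 3 and 2 kept. ENO1, an enolase, went from 491 and 180 to 224 and 41, and HK2, a hexokinase, from 529 and 217 to 53 in library 1 only. Cell cycle and replication genes had 7 of 33, with 1 and 2 kept. RRM2, a ribonucleotide reductase subunit, had 212 and 155 in DMSO and no peak in dTAG47, and CDK4, a cyclin-dependent kinase, had 195 and 28 in DMSO and 36 in dTAG47 library 3 only. The network of MYC and its partners had regions at 3 of 21 genes, with 0 and 1 kept. MXD3, a MAX partner, had 247 and 153 and no peak in dTAG47, and MNT, another MAX partner, had 146 and 66 and then 54 in library 3. SWI/SNF genes had 3 of 22, with 0 and 1 kept, the kept one being PBRM1. MYC, MAX, SMARCB1, SMARCA4 and TERT had no peak at a start site in any of the 5 libraries.

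**Figure D4:**
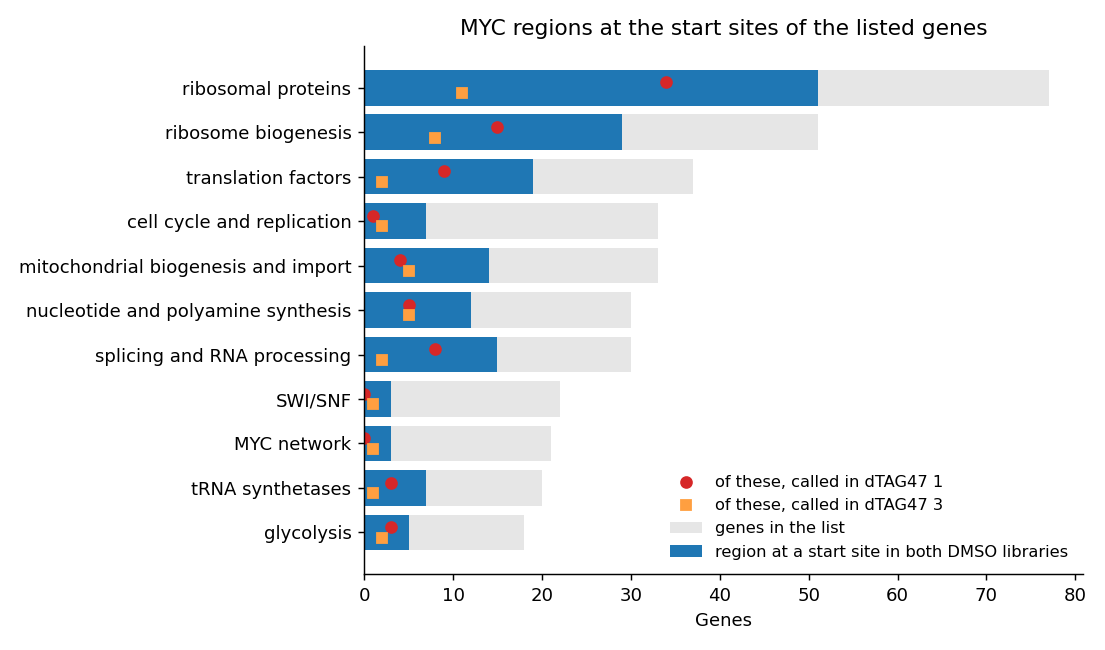
For each gene list, the number of genes (grey), the number with a region at a start site in both DMSO libraries (blue), and of these the number still called in dTAG47 1 (circles) and dTAG47 3 (squares). Ribosomal proteins had 51 of 77 genes with a region, 34 of them called in dTAG47 1 and 11 in dTAG47 3, whereas SWI/SNF genes had 3 of 22.

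Transcription and mRNA at these promoters were lower after dTAG47, on average and by a small amount. PRO-seq counts engaged polymerases and was taken at the same 4 h, from 2 DMSO and 2 dTAG47 libraries. The 896 tested genes with a MYC promoter region had a median log2 change of −0.17 in gene bodies, against 0.02 over all 13397 tested. The median was −0.26 for the 278 genes whose region was kept in library 1 or 3 and −0.12 for the 618 whose region was cleared. No gene body passed edgeR's quasi-likelihood test after Benjamini-Hochberg adjustment (0.0% fell and 0.0% rose), although 1298 had an unadjusted p under 0.05, and DESeq2 called 68, of which 62 fell and 6 rose. In these bulk libraries a change in every cell and a change in the mix of cells cannot be told apart.
RNA-seq was taken at 24 h, from 3 libraries per group, and all 12 libraries with the parental line entered a single edgeR fit. Of 13401 genes, 595 fell (4.44%) and 572 rose (4.27%) in DTMYC cells at an adjusted p under 0.05. Of the 914 tested genes with a MYC promoter region, 145 fell and 10 rose, with a median log2 change of −0.13 against 0.03 over all genes. Where the region was kept, 46 of 281 fell and 1 rose (median −0.18). Where it was cleared, 99 of 633 fell and 9 rose (median −0.11). The share that fell was thus 16.4% of kept and 15.6% of cleared. Genes with kept regions also had more mRNA in DMSO, with a median of 31.7 RPKM against 16.9 for cleared and 5.58 for all tested genes. The number of calls rests on the libraries: leaving out any one of the 6 DTMYC libraries gave between 329 and 636 calls in place of 1167, and leaving out parental DMSO library 3 gave 3951. With the DTMYC libraries alone there were 4593 calls, and 184 of 280 genes with kept and 295 of 633 with cleared regions fell (65.7% and 46.6%). Without parental DMSO library 3 the shares were 58.0% and 41.6%, so the near equality of the shares did not hold in these fits, while the medians stayed at −0.21 and −0.14 in both.
Single genes show levels at regions of both kinds, in CPM. At MAT2A (kept) mRNA was 380, 368 and 359 in DMSO and 297, 301 and 286 in dTAG47, a log2 change of −0.32 ± 0.07 (SE; edgeR adjusted p = 0.012). At NOP56, a snoRNP core protein whose region was kept, it was 338, 300 and 347 in DMSO and 218, 227 and 220 in dTAG47, a log2 change of −0.57 ± 0.08 (SE; edgeR adjusted p = 0.0018). Neither pair of groups overlapped.
At EBNA1BP2 (cleared) mRNA was 175, 149 and 172 in DMSO and 124, 117 and 119 in dTAG47 (log2 −0.47, edgeR adjusted p = 0.016). ACTR3B (cleared) had 51.6, 49.4 and 49.5 in DMSO and 39.0, 38.8 and 40.2 in dTAG47 (log2 −0.35, edgeR adjusted p = 0.016). BRWD1, the strongest cleared promoter, had 63.6, 72.3 and 66.7 in DMSO and 68.4, 67.0 and 77.1 in dTAG47 (log2 0.07, edgeR adjusted p = 0.85), and its groups overlapped. MAX had no MYC region, and its mRNA was 50.2, 52.4 and 52.1 in DMSO and 42.6, 40.5 and 42.8 in dTAG47 (log2 −0.30, edgeR adjusted p = 0.022).
By list, all 29 tested ribosome biogenesis genes with a region had a negative RNA-seq estimate and 16 fell, with a median log2 change of −0.47. Of the 51 ribosomal protein genes with a region, 0 passed the test, with a median of −0.17, and their counts are uncertain because near-identical copies exist in the genome. Of nucleotide and polyamine synthesis genes 6 of 12 fell (median −0.32), and of mitochondrial biogenesis and import genes 6 of 14 (median −0.33).

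**Figure D5:**
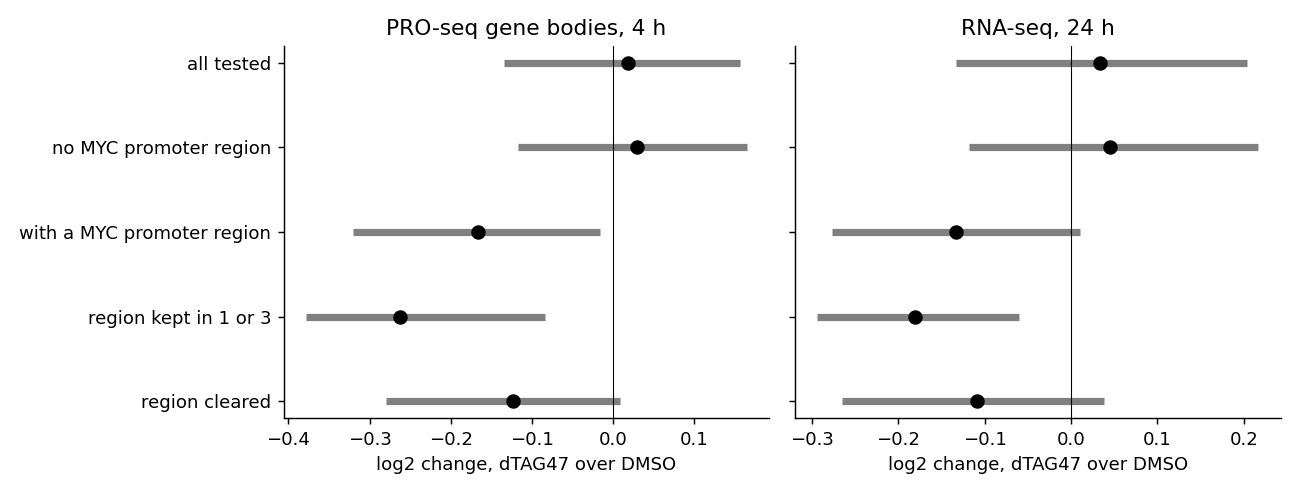
Median log2 change, dTAG47 over DMSO (points), with the interquartile range of genes (bars), in PRO-seq gene bodies at 4 h and RNA-seq at 24 h, for genes grouped by the MYC region at their start site. Medians are −0.26 (PRO-seq) and −0.18 (RNA-seq) where the region was kept, −0.12 and −0.11 where it was cleared, and 0.02 and 0.03 over all tested genes.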

How the data were processed

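The authors called ChIP-seq and ATAC-seq peaks library by library and deposited a score for every peak. From its values and the MACS2 format, it is −log10 q multiplied by 10. The deposited RNA-seq table holds read counts per gene, and the deposited PRO-seq table holds counts per gene body beside a gene body density, a deposited signal that was not used. Per the submitters' processing notes the build was hg19, and the tools listed were cutadapt, Bowtie2, STAR, MACS2, featureCounts, DiffBind and DESeq2. No source used here gives their roles or versions. The 3 IgG libraries are not analysed here.

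An alternative with only peaks that overlap an ATAC-seq peak, and the test of peak number without logarithm, were added after the data were seen. Peaks overlapped when they shared at least 1 base. Sequence came from GRCh37, the same build as hg19, and genes from GENCODE v44 lifted to it. Gaps of at least 10 kb counted. CACGTG was sought within 100 bases of midpoints, since the lists have no summits. Libraries were compared by exact permutation. The count tests used edgeR 4.0.16 under R 4.3.3 (filterByExpr, TMM, quasi-likelihood F-test, Benjamini-Hochberg adjustment, threshold 0.05), with DESeq2 1.42.0 as an alternative. Gene levels are CPM and, per length, RPKM. On simulated counts for RNA-seq (13401 genes), 90% of genes changed 2-fold were called and 53% of those changed 1.5-fold; for PRO-seq (13397 genes) 86% and 18%. RNA-seq libraries held 27854207 to 54633745 counts and PRO-seq gene bodies 18209879 to 23256313. Of the RNA-seq entries 94.7%, and of the PRO-seq entries 88.7%, matched an annotated gene.

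The named items are the 8 strongest regions, the 8 strongest kept in libraries 1 and 3, the 8 strongest cleared promoters, the 5 highest dTAG47-only peaks, up to 3 members of each list and 10 fixed genes, of which the text gives those that carry a comparison. The mRNA examples (MAT2A, NOP56, EBNA1BP2, ACTR3B, BRWD1 and MAX) were picked after their values were seen, and NOP56 and the other list members beyond 3 a list stand outside this rule. The regions, lists and tests were chosen with earlier results of these data known.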

Additional observations from a re-analysis of the deposited data

How the results depend on the processing

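Peak number was lower in dTAG47 in every setting that gave a value, with log2 differences of −6.07 to −3.14 when 1 library was left out. Without library 2 the mean share of regions kept and its rise with the score kept their direction. The other numbers of the peak comparison with 1 library left out ranged from −0.23 to 0.19 for the width (log2), from −1.82 to −0.82 for the score of regions still called, from −0.74 to 4.10 percentage points for the E-box, and from 28.2% to 62.1% for peaks outside DMSO peaks. Peaks with a score of at least 50 gave −0.10 for the width and −2.60 for the E-box. The E-box difference was 1.90 with a reciprocal overlap of 50%, 1.08 with regions of either DMSO library, 4.10 with CACGTG anywhere in the region and 1.99 within 250 bases. The score of regions still called was −1.11 with regions of either DMSO library. Peaks outside DMSO peaks were 8.64% among gap-distant peaks. The overlap of 50% lowered the mean share kept to 5.52%, and regions of either library to 3.30%. The causes were not tested. With gap-distant peaks only, dTAG47 library 2 is empty, so peak number, median score and width over 3 libraries have no value.

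RNA-seq calls ranged from 329 to 3951 with 1 library left out and were 4593 with DTMYC libraries alone. PRO-seq calls ranged from 5 to 44, and were 68 with DESeq2 and 2 without a filter. The median changes of genes with a MYC region ranged from −0.17 to −0.13 (RNA-seq) and from −0.25 to −0.12 (PRO-seq) with 1 library left out, and the RNA-seq median was −0.16 with DTMYC libraries alone. With the replicate block, peak number gave −3.14, the mean share kept 7.30%, RNA-seq 1140 calls and PRO-seq 4360. In that PRO-seq fit 475 of 896 genes with a MYC region fell, 68.3% of those with kept and 46.1% of those with cleared regions. Same-numbered libraries correlated at 0.08, −0.01 and −0.05 (RNA-seq) and 0.64 (PRO-seq, only 2 pairs), and no label ties the numbers to a shared culture or day. Depth behind the peak lists is unknown, so a lost call may be a peak under the threshold.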

Other observations

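Start sites of genes that host small nucleolar RNAs, which guide the modification of ribosomal RNA, kept MYC peaks more often than other promoters. This grouping was chosen after values at SNHG15 had been seen and is a description. Of 424 protein-coding genes that hold a snoRNA, 75 had a shared region (17.7%), against 882 of 19674 others (4.48%). Of the 86 gap-distant promoter regions at a host's start site, 42 were kept in dTAG47 library 1 (48.8%) and 20 in library 3 (23.3%), while of the 736 other promoter regions 166 (22.6%) and 67 (9.10%) were kept. The hosts also had higher DMSO scores, with a median lower score of 76.5 against 55. Within the top quintile of the score, 24 of 33 host regions were kept in library 1 and 17 in library 3 (72.7% and 51.5%), against 70 and 36 of 134 others (52.2% and 26.9%).

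Gap-distant peaks seen in dTAG47 only were few and weak. Apart from a peak of score 437 on chromosome 4 (chr4:68265524-68265872), about 21074 bases from a start site of CENPC, a centromere protein, the next in library 1 had a score of 61, at the start of MINDY2, a deubiquitinase. The highest in library 3 had a score of 120.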
